A study of Mus musculus with 107 samples.

Results

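Transcript levels of 10 genes of the integrated stress response, Atf4, Atf3, Ddit3, Trib3, Asns, Psat1, Phgdh, Chac1, Sesn2 and Hspa5, were examined in subcutaneous mouse tumors of 12 syngeneic models. The genes were taken by symbol, 10 of 50686 genes in the table, and each symbol occurred in the table once. There were 3 groups for every model. Treatment-naïve tumors were collected at about 100 mm3 (Base, 35 tumors, 3 for each model and 2 for MC38). Tumors from untreated mice (NT, 36 tumors) and from mice given lenvatinib orally at 10 mg/kg each day for 7 days (LEN, 36 tumors) were both collected on day 8, 3 for each model. Lenvatinib (LEN) is an inhibitor of several receptor tyrosine kinases, among them the VEGF and FGF receptors. All mice were implanted in the flank at 7 weeks of age, and each model is a single cell line.

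BNL 1ME A.7R.1 (hepatocellular carcinoma) grew in male BALB/cAnNCrlCrlj mice, and the kidney lines Renca and in vivo adapted RAG, the colorectal line CT26.WT and the breast lines 4T1 and EMT6 grew in females of that strain. Hepa 1-6 (hepatocellular carcinoma) grew in male C57L/J mice. Among the other models in female mice, the colorectal line MC38 and the melanoma line B16-F10 grew in C57BL/6NCrl, the lung line LL/2 in C57BL/6JCrl, the bladder line MBT2 in C3H/HeNCrl and the lung line KLN205 in DBA/2NCrl. Within the table, the summed level of 5 melanocyte markers was between 8065 and 9414 TPM in B16-F10, and that of 4 hepatocyte markers was between 2860 and 4132 TPM in Hepa 1-6. The same hepatocyte markers summed to at most 1.56 TPM in BNL 1ME A.7R.1, so these defining markers were near 0 in that model despite its label. Base and NT tumors differed in size, time in the host and collection, which cannot be told apart.

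The integrated stress response begins when kinases phosphorylate the initiation factor eIF2 in response to amino acid shortage, misfolded protein in the endoplasmic reticulum, heme shortage or viral RNA. General translation then falls, while translation of the Atf4 transcript rises, so the transcript level of Atf4 is only a partial readout of the factor. ATF4 binds DNA as a dimer with C/EBP family members and raises genes for amino acid supply and stress control. Hspa5 (BiP) is the main endoplasmic reticulum chaperone and is chiefly a target of the ATF6 and XBP1 branches of the unfolded protein response, which overlap with the ATF4 branch.

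All 10 are protein-coding genes in GENCODE M21 on GRCm38. The regulators lie as Atf4 at chr15:80255184-80257541 on the plus strand, Atf3 at chr1:191170296-191218039 on the minus strand, Ddit3 at chr10:127290774-127296288 on the plus strand and Trib3 at chr2:152337422-152344032 on the minus strand. The enzymes lie as Asns at chr6:7675169-7693254 on the minus strand, Psat1 at chr19:15904678-15947337 on the minus strand, Phgdh at chr3:98313170-98339990 on the minus strand and Chac1 at chr2:119351229-119354381 on the plus strand, with Sesn2 at chr4:132492032-132510501 on the minus strand and Hspa5 at chr2:34771970-34777547 on the plus strand. The annotation holds a shorter second Ddit3 model inside Ddit3, an opposite-strand gene (Mars) over its end and a processed pseudogene of Phgdh (Phgdh-ps1), so the levels of Ddit3 and Phgdh are less certain where reads could be shared.

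The promoters are shown first, because ATF4 and the factors of the unfolded protein response act through short elements there. A match is a description of the sequence and not evidence of binding. RefSeq promoter windows on GRCm38.p6, covering 250 bases before and 50 bases after each start site, were found for all 10 genes (11 windows). The core of the composite C/EBP and ATF element, searched as TGATGNAA on both strands, was in the windows of 4 genes, against 3.97% of all 32851 windows. The endoplasmic reticulum stress response element, searched on both strands as CCAAT and CCACG separated by 9 bases of any kind, was in the window of 1 gene, against 0.119% of all windows. The matches are written 5′ to 3′ on the strand of the gene, with the matched bases in capitals. A reversed match of TGATGNAA reads TTNCATCA. The Atf3 stretch lies at chr1:191183406-191183493 on the minus strand, in an intron of the GENCODE gene, 110 to 103 bases before the RefSeq start. The Chac1 stretch lies at chr2:119350999-119351086 on the plus strand, upstream of the gene, 193 to 186 bases before the start. The Trib3 stretch lies at chr2:152344028-152344057 on the minus strand, and its match is 15 to 22 bases after the start. The Asns stretch lies at chr6:7693214-7693243 on the minus strand, with its match 23 to 16 bases before the start. The Hspa5 stretch lies at chr2:34772020-34772048 on the plus strand, with its match 65 to 47 bases before the start. These last 3 stretches overlap a GENCODE exon of their gene. For Trib3 only the end of the stretch reaches the exon, and the match lies upstream of the GENCODE gene.
Atf3: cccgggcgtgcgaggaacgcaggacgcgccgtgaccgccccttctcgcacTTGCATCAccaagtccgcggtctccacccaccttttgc
Chac1: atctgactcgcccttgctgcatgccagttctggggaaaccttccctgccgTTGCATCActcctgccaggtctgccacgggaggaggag
Trib3: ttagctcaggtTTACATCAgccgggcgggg
Asns: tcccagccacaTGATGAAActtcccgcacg
Hspa5: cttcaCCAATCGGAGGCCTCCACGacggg

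In the treatment-naïve tumors, Trib3 and Chac1 differed most between models, and Hspa5 differed least. The ratio of the highest to the lowest model mean was 52.8 for Trib3, a pseudokinase that ATF4 induces and that holds back its activity, and 34.7 for Chac1, a gamma-glutamylcyclotransferase that degrades glutathione. It was 10.5 for Ddit3 (CHOP), the factor tied to cell death under lasting stress, and 8.89 for Atf3, a repressing bZIP factor. It was only 3.04 for Hspa5. All 10 genes differed between the 12 models (limma F test, highest adjusted p = 2.18e-10), and so did 93.6% of all genes tested, so this count says nothing particular about them. No tumor had a level of 0 for any of the 10 genes. These are bulk samples, so fewer cells of a type and less RNA per cell cannot be told apart.

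Trib3 was measured in RAG, its highest model, at 79.4, 132 and 102 TPM (a share of the library corrected for transcript length), and in BNL 1ME A.7R.1, its lowest, at 1.88, 2.24 and 1.81 TPM. Renca and MC38 (both 67.5 TPM), MBT2 (34.5), CT26.WT (23.0) and B16-F10 (20.2) followed RAG in the order of mean levels. EMT6, KLN205, Hepa 1-6 and 4T1 lay between 7.75 and 8.85 TPM, and the gaps among them stayed within their spread. LL/2 had a mean of 4.71 TPM.

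Chac1 was highest in Renca, at 39.6, 51.9 and 45.0 TPM, and lowest in LL/2, at 0.92, 1.83 and 1.18 TPM. RAG (23.0 TPM), B16-F10 (15.4) and CT26.WT (12.9) were next to Renca, and 7 of the 11 gaps between neighboring models exceeded the larger SD of the pair. Ddit3 was highest in RAG, at 125, 167 and 133 TPM, where every tumor was above all tumors of the other 11 models, and lowest in 4T1, at 12.2, 14.4 and 13.9 TPM. The 5 models from Renca to MC38 in its order had means of 47.6 to 38.2 TPM, and the gaps among them stayed within the spread, while MBT2 above them and EMT6 below them lay beyond it. Atf3 was highest in Hepa 1-6, at 27.8, 29.5 and 28.8 TPM, and lowest in BNL 1ME A.7R.1, at 1.95, 4.08 and 3.65 TPM. Only 3 of its 11 neighbor gaps exceeded the SD, and the 3 LL/2 tumors alone ran from 6.20 to 18.5 TPM.

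Atf4 itself, the factor that the pathway turns on, had a mean of 253 TPM in MBT2 (275, 232 and 251 TPM) and of 56.0 TPM in 4T1 (56.4, 54.1 and 57.5 TPM). RAG (221 TPM) and CT26.WT (209 TPM) came next, and neither gap between neighbors exceeded their spread. 4T1 was also the lowest model for Ddit3, for Sesn2 and for Asns. The share of TPM assigned to protein-coding genes was lowest in Base tumors of 4T1 (mean 38.9%) and highest in those of MBT2 (58.8%). The orders of models were not repeated with rescaling. Sesn2 encodes sestrin 2, a leucine sensor that restrains mTORC1, and was measured at 3.43, 3.42 and 2.85 TPM in 4T1 against 22.4 and 15.3 TPM in the 2 MC38 tumors.

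The 3 biosynthetic enzymes had orders of their own. Asns (asparagine synthetase) was highest in CT26.WT at 116, 124 and 146 TPM, followed by Renca (127 TPM) and MC38 (112 TPM) with gaps within the spread, and lowest in 4T1 at 12.9, 15.3 and 18.0 TPM. Psat1, an aminotransferase of serine synthesis, was highest in MBT2 at 218, 195 and 216 TPM and lowest in KLN205 at 28.3, 26.4 and 26.2 TPM. Phgdh, the first enzyme of serine synthesis, was highest by mean in Hepa 1-6 at 254, 265 and 227 TPM and lowest in BNL 1ME A.7R.1 at 57.4, 59.8 and 47.4 TPM. Neither end stood clear, since the means of Renca (237 TPM) and 4T1 (55.5 TPM) lay within the range of these tumors. Hepa 1-6 was the model with the highest means of Phgdh and Atf3, with Renca close for Phgdh, and yet had a mean of only 3.36 TPM of Chac1 and 7.99 TPM of Trib3.

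By mean TPM, Hspa5 was the most abundant of the 10 genes in every treatment-naïve model. It was measured at 701, 623 and 672 TPM in MBT2 and at 215, 241 and 201 TPM in BNL 1ME A.7R.1. BNL 1ME A.7R.1 was thus the lowest model for Atf3, Trib3, Phgdh and Hspa5. Over the 12 model means, all 45 pairs of the 10 genes had positive correlations (median Pearson r = 0.574, range 0.175 to 0.861), as a description over models that share a library type and a method. No r over other gene pairs was set beside them.

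**Figure D1:**
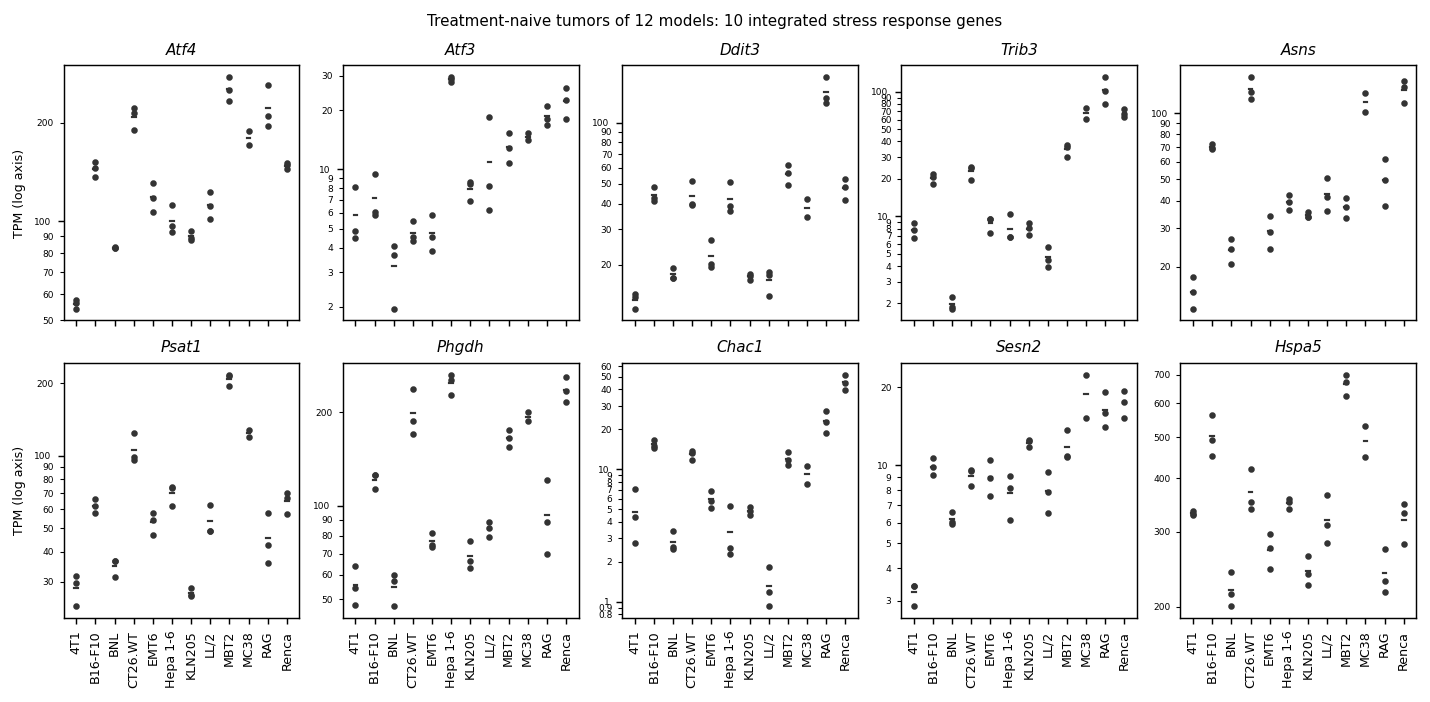
Level of each gene (TPM, log axis) in each treatment-naïve tumor of the 12 models. Points are tumors, 3 for each model and 2 for MC38, and bars are means. Trib3 spans from 1.98 TPM in BNL 1ME A.7R.1 to 104 TPM in RAG, while Hspa5 spans from 219 to 665 TPM.

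Facts of the libraries bear on the orders above and on every comparison that follows. The share of TPM assigned to protein-coding genes ran from 37.1% to 60.6% in Base, from 40.5% to 62.4% in NT and from 27.5% to 66.6% in LEN tumors, and read depth is unknown. On average over models, LEN tumors had lower levels of all 7 endothelial markers (summed level 19.7 to 77.1 TPM in LEN against 49.9 to 182 TPM in NT), of 5 of 6 macrophage and all 6 proliferation markers, and higher levels of 12 of 12 hypoxia genes (median difference 0.46 on the log2 scale), 5 of 5 T cell, 4 of 4 tested neutrophil and 4 of 4 skeletal muscle markers. No melanocyte, hepatocyte or B and plasma cell marker was called. Of 6 fibroblast markers 1 was higher and 1 lower, and of 2 tested adipocyte markers 1 was higher and 1 lower. The part of these changes in the results for the 10 genes was not tested.

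Whether LEN altered the 10 genes was asked first as the mean of the 12 within-model differences, LEN minus NT, on log2(TPM + 1). Hspa5, Trib3, Ddit3, Atf3 and Atf4 rose, and the other 5 genes did not pass the test. The rise was small, from 1.08-fold for Atf4 to 1.18-fold for Trib3 on the TPM + 1 scale, which understates changes of low genes. Counts of 5 of 10 higher and 0 of 10 lower compare with 13.7% of all 17351 genes called higher and 9.87% called lower (limma, adjusted p under 0.05), and the median effect over all genes was -0.0019. With upper-quartile scaling 2279 genes were called higher and 3163 lower, in place of 2371 and 1712, and the 10 genes gave 5 higher and 1 lower (Phgdh, -0.08, adjusted p = 0.0495). With scaling over protein-coding genes the split was 2529 and 2811, and the 10 genes gave 5 higher and 0 lower.

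Trib3 rose by 0.23 (SE 0.06, adjusted p = 0.00108) and was higher in 9 of 12 models. The SE and p of each mean over models rest on the spread of tumors within groups, not on the spread over models. The effect on Trib3 ran from -0.30 in KLN205 to 1.16 in BNL 1ME A.7R.1. Ddit3 rose by 0.19 (SE 0.05, adjusted p = 0.0037, 9 of 12 models), Atf3 by 0.22 (SE 0.07, adjusted p = 0.0144, 9 of 12) and Atf4 by 0.11 (SE 0.03, adjusted p = 0.0113, 8 of 12). Hspa5 rose by 0.15 (SE 0.03, adjusted p = 0.000646) and was higher in all 12 models on unscaled values. These counts of models were not repeated with rescaling. The rise of Hspa5 was 0.009 (SE 0.06) in B16-F10. It was 0.11 (SE 0.10) in BNL 1ME A.7R.1, where the median over all genes was 0.17. No single model passed the test for Hspa5, and the test for a difference between models did not pass either (adjusted p = 0.64). Psat1 (-0.08, adjusted p = 0.259), Phgdh (-0.06, adjusted p = 0.152), Asns (0.04, adjusted p = 0.547), Sesn2 (0.04, adjusted p = 0.524) and Chac1 (0.08, adjusted p = 0.396) were not called.

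These calls depended on a single model in part. Without BNL 1ME A.7R.1, 3 of 10 genes were called in place of 5. Ddit3 and Hspa5 kept their calls, Atf4 (0.07, adjusted p = 0.162), Atf3 (0.20, adjusted p = 0.0604) and Trib3 (0.15, adjusted p = 0.0576) lost theirs, and Phgdh was called lower (-0.10, adjusted p = 0.018). Chac1 changed sign, to -0.04. Atf3 also lost its call without B16-F10 (0.18, adjusted p = 0.0624).

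The LEN effect differed between the 12 models for 7 of the 10 genes, against 35.3% of all genes (limma F test over the 12 differences). These were Chac1, Phgdh, Trib3, Atf4, Ddit3, Asns and Psat1. Tests within each model called 8 of 120 pairs of gene and model, 6 higher (5%) and 2 lower (1.67%), against 3.56% of all gene and model pairs called higher and 1.3% called lower. The LEN and NT tumors did not overlap in 29 of the 120 pairs (24.2%), against 24.4% of all gene and model pairs, and shares this near the background are not a result about the 10 genes.

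**Figure D2:**
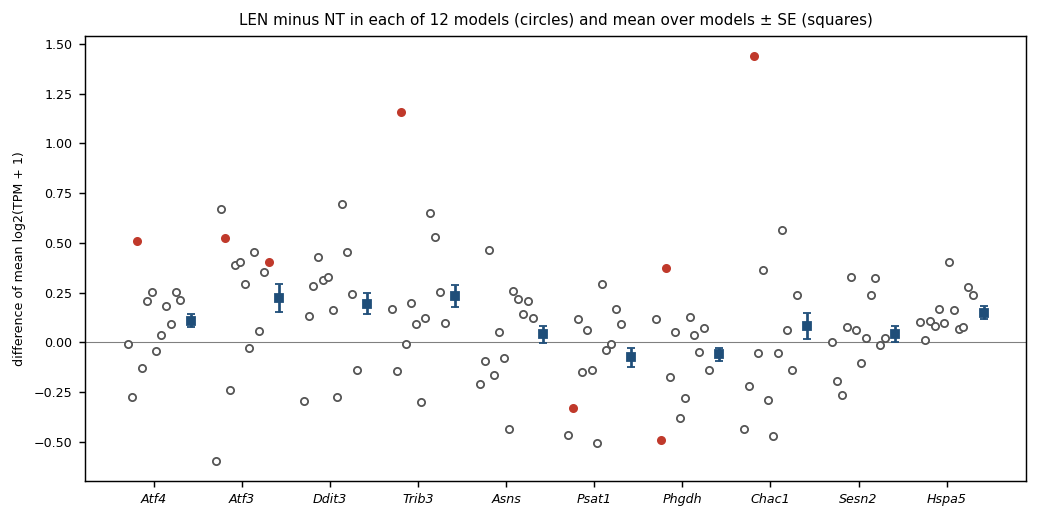
Difference LEN minus NT in mean log2(TPM + 1) for each gene. Circles are the 12 models in alphabetical order from left to right, red where the test within that model passed. Squares with bars are the mean over models ± SE, with the SE from the spread of tumors within groups. The highest circles for Chac1 (1.44) and Trib3 (1.16) are BNL 1ME A.7R.1. On these unscaled values all 12 circles for Hspa5 lie above 0, that of B16-F10 only at 0.009.

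In BNL 1ME A.7R.1, the lowest of the NT models for Trib3, Atf3 and Phgdh, LEN tumors had higher Chac1, Trib3, Atf3, Atf4 and Phgdh. Chac1 was 2.55, 3.54 and 2.45 TPM in NT and 11, 8.89 and 8.32 TPM in LEN, a difference of 1.44 (SE 0.16, adjusted p = 0.000881). Trib3 was 1.85, 3.27 and 1.51 TPM in NT and 5.4, 5.99 and 6.6 TPM in LEN, a difference of 1.16 (SE 0.21, adjusted p = 0.00721). The lowest LEN tumor was above the highest NT tumor for both genes.

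Atf4 in this model was 71.4, 74.9 and 66.6 TPM in NT and 110, 98.0 and 96.5 TPM in LEN, a difference of 0.51 (SE 0.07, adjusted p = 0.00302). Atf3 was 4.84, 4.66 and 5.82 TPM in NT and 6.51, 7.62 and 9.34 TPM in LEN, a difference of 0.52 (SE 0.15, adjusted p = 0.0344). Phgdh was 55.0, 46.7 and 45.4 TPM in NT and 70.99, 65.4 and 55.5 TPM in LEN, a difference of 0.37 (SE 0.11, adjusted p = 0.0429). The groups did not overlap for these genes either. Sesn2 lay the other way, at 6.94, 6.66 and 6.34 TPM in NT and 5.75, 5.45 and 4.88 TPM in LEN, but was not called.

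The count of 5 of 10 in BNL 1ME A.7R.1 stands beside 26.3% of all genes called higher in that model, whose median effect over all genes was 0.17 (-0.01 with upper-quartile and 0.05 with protein-coding scaling). It was 3 of 10 with upper-quartile scaling, with scaling over protein-coding genes, with no minimum TPM, without NT replicate 3 and without LEN replicate 4. The share of all genes called higher in this model was 13.2% with upper-quartile scaling, 16.8% with protein-coding scaling and 15.7% with no minimum TPM. Chac1, Trib3 and Atf4 passed under every alternative in which they were fitted, but the difference of Atf4 was 0.31 with upper-quartile and 0.38 with protein-coding scaling in place of 0.51. With upper-quartile and protein-coding scaling Atf3 (0.34 and 0.40, adjusted p = 0.139 and 0.102) and Phgdh (0.17 and 0.24, adjusted p = 0.311 and 0.163) lost their calls, as they did with no minimum TPM. Atf3 also lost its call in the fit of all 72 tumors (adjusted p = 0.111) and Phgdh without the mean-variance trend (adjusted p = 0.0728). When single tumors were left out, Atf3 lost its call without NT replicate 1 or 3 or LEN replicate 4 or 5 (adjusted p up to 0.101), and Phgdh without NT replicate 3 or 4 or LEN replicate 2 or 4 (up to 0.129). Marker levels also differed in LEN tumors of this model. The summed skeletal muscle markers were 25.4 to 93.7 TPM in NT and 1353 to 1940 TPM in LEN (4 of 4 higher), 3 of 4 adipocyte markers were higher, all 7 endothelial markers were lower (summed level 167 to 182 TPM in NT, 66.5 to 77.1 TPM in LEN) and 7 of 12 hypoxia genes were higher. All 6 fibroblast markers were lower (summed level 8077 to 9148 TPM in NT, 6523 to 7459 TPM in LEN), as were 4 of 6 proliferation and 1 of 6 macrophage markers, and 3 of 4 T cell and 1 of 4 neutrophil markers were higher. Their part in the result was not tested.

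In the same model 10 of 13 aminoacyl-tRNA synthetases, 7 of 11 other ATF4 target genes and 6 of 9 amino acid transporters were also higher, with 1 ATF4 target lower, beside the same 26.3% of all genes. The median differences of these 3 lists were 0.39, 0.42 and 0.34. The counts were 7 of 20 chaperone and unfolded protein response genes (median 0.22), 4 of 12 genes of eIF2 signaling (0.27) and 1 of 8 serine, one-carbon and proline genes (0.19), near or below the share over all genes and no result about those lists. Of 5 paralogs 2 were higher and 3 lower, and 5.21% of all genes were called lower in this model. The list counts in this model were not repeated with rescaling.

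In B16-F10 the 2 enzymes of serine synthesis fell. None of the 10 genes was called higher, beside 8.57% of all genes, and a count of 0 of 10 is near what that share gives. Psat1 was 62.9, 59.4 and 57.5 TPM in NT and 46.6, 49.2 and 46.3 TPM in LEN, a difference of -0.33 (SE 0.06, adjusted p = 0.0221). Phgdh was 131, 105 and 113 TPM in NT and 76.8, 92.1 and 78.6 TPM in LEN, a difference of -0.49 (SE 0.11, adjusted p = 0.0311). The groups did not overlap for either gene, and 2.42% of all genes were called lower in B16-F10. All 6 macrophage, all 6 fibroblast, all 5 T cell and all 4 skeletal muscle markers were higher in LEN tumors of this model, with 7 of 12 hypoxia genes, 2 of 3 adipocyte and 1 of 3 neutrophil markers. Lower were 4 of 6 proliferation markers (summed level 537 to 629 TPM in NT, 455 to 462 TPM in LEN), 4 of 7 endothelial markers and 1 of 5 melanocyte markers. The part of these changes in the result was not tested. Psat1 lost its call without NT replicate 2 or LEN replicate 2, 3 or 5, and Phgdh without NT replicate 2 or 5 or LEN replicate 2 or 5. Both lost their calls without the mean-variance trend, Psat1 also in the fit of all 72 tumors and Phgdh with no minimum TPM. Over all alternatives the adjusted p reached 0.227 for Psat1 and 0.112 for Phgdh.

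Renca gave the remaining call. Atf3 was 39.5, 34.8 and 36.5 TPM in NT and 47.7, 55.0 and 45.2 TPM in LEN, a difference of 0.40 (SE 0.10, adjusted p = 0.0402). It was 1 of 10 genes, beside 4.91% of all genes called higher in Renca, and it lost its call without any of 5 of the 6 tumors (NT replicates 3 and 5 and LEN replicates 2, 4 and 5, adjusted p up to 0.136), with no minimum TPM, without the mean-variance trend and in the fit of all 72 tumors. In LEN tumors of Renca all 7 endothelial markers (summed level 70.3 to 88.4 TPM in NT, 23.3 to 31.7 TPM in LEN), 5 of 6 macrophage, 4 of 6 proliferation and 1 of 4 T cell markers were lower, and 10 of 12 hypoxia genes, 2 of 3 neutrophil and 2 of 4 T cell markers were higher. Their part in the result was not tested. No other pair of gene and model passed the test. In MC38, Trib3 was 73.1, 62.2 and 73.3 TPM in NT and 95.1, 114 and 93.0 TPM in LEN, and was not called (0.53, adjusted p = 0.265). The groups did not overlap, as in 24.4% of all gene and model pairs.

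**Figure D3:**
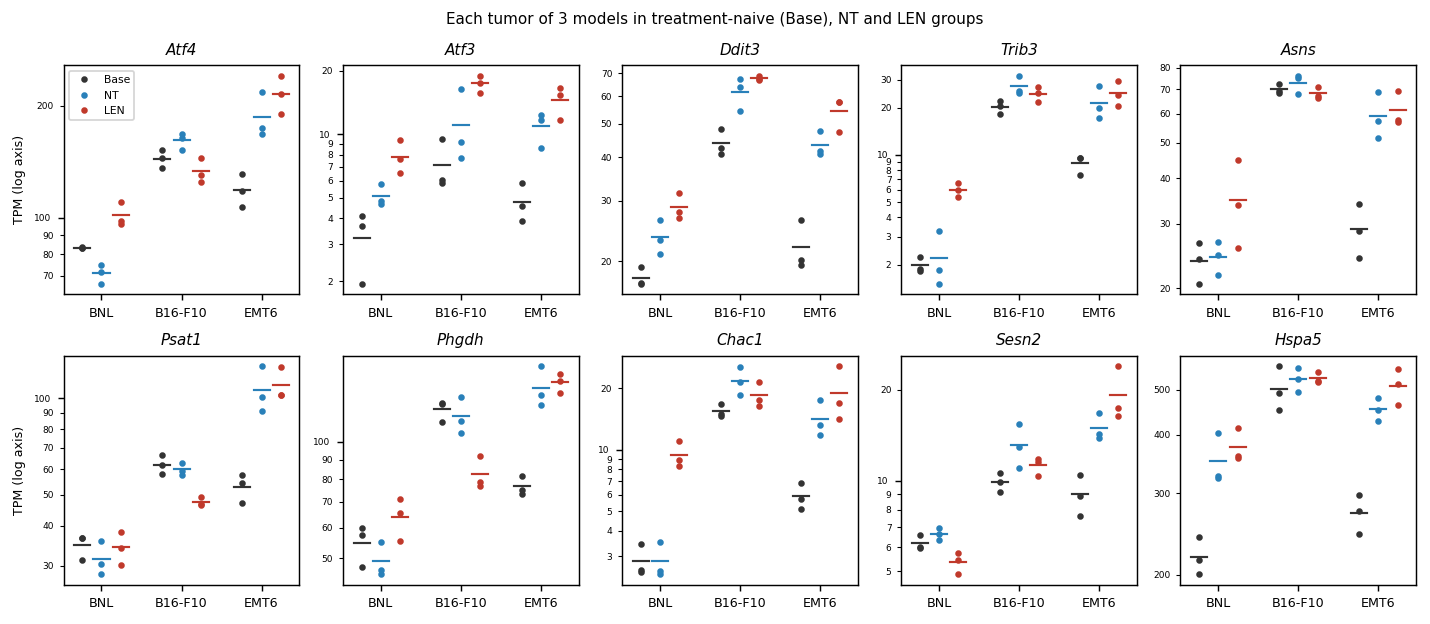
Level of each gene (TPM, log axis) in every tumor of BNL 1ME A.7R.1 (BNL), B16-F10 and EMT6. Colors mark Base, NT and LEN groups of 3 tumors each and bars are means. Chac1 separates LEN from NT in BNL, Psat1 and Phgdh are lower in LEN in B16-F10, and in EMT6 the step lies between Base and NT for all 10 genes.

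Genes around the 10 in the pathway gave a mixed account of LEN, and their counts stand beside the 13.7% of all genes called higher and 9.87% called lower. Of 14 other ATF4 target genes 6 rose and 1 fell (median 0.11), led by Cebpb (0.46, adjusted p = 5.77e-13), which encodes a dimer partner of ATF4, and Vldlr (0.41, adjusted p = 3.6e-08), a lipoprotein receptor. The one that fell was Cth (-0.24, adjusted p = 0.0216), an enzyme of cysteine synthesis. Of 20 endoplasmic reticulum chaperone and unfolded protein response genes 7 rose and none fell (median 0.07), among them the co-chaperone Dnajb9 (0.26, adjusted p = 1.04e-05) and the factor Xbp1 (0.16, adjusted p = 1.75e-05).

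Of 9 amino acid transporters 4 rose and none fell (median 0.08), led by the cystine transporter Slc7a11 (0.24, adjusted p = 0.000206) and the glycine transporter Slc6a9 (0.16, adjusted p = 0.0245). In eIF2 signaling 2 of 12 genes rose (median 0.01), Ppp1r15a (GADD34; 0.29, adjusted p = 0.00606) and Ppp1r15b (0.09, adjusted p = 0.0111), which both encode subunits of the phosphatase that reverses the eIF2 mark. Only Sars (0.13, adjusted p = 0.000622) of 13 aminoacyl-tRNA synthetases rose (median 0.02). These last counts, of eIF2 signaling and of the synthetases, lay near or below the share over all genes and are not a result about the lists.

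Of 8 serine, one-carbon and proline genes 2 rose and 1 fell (median -0.01), with Aldh1l2 (0.31, adjusted p = 0.000263), a mitochondrial folate enzyme, and Shmt1 (-0.16, adjusted p = 0.0212), the cytosolic serine hydroxymethyltransferase, in opposite directions. Among 5 paralogs of the 10 genes, Sesn1 fell by 0.47 (adjusted p = 1.17e-12) while Sesn2 was not called, and Trib1 rose by 0.20 (adjusted p = 4.67e-06).

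Growth to day 8 without treatment was compared with the treatment-naïve tumors in the same way. Hspa5, Ddit3, Sesn2, Atf3 and Atf4 were higher in NT tumors on average, and none of the 10 was lower, beside 17% of all 17428 genes called higher and 11.5% called lower. Hspa5 was higher by 0.25 (SE 0.03, adjusted p = 1.03e-07, 10 of 12 models), Ddit3 by 0.26 (SE 0.05, adjusted p = 0.000104, 10 of 12) and Sesn2 by 0.24 (SE 0.04, adjusted p = 1.47e-05, 9 of 12). Atf3 (0.22, adjusted p = 0.0219) and Atf4 (0.08, adjusted p = 0.0161) lost their calls with upper-quartile or protein-coding scaling, without EMT6 and without Renca, which left 3 of 10 each time. The difference of Atf4 was then 0.03 and 0.02 with the respective rescalings, 0.03 without EMT6 and 0.05 without Renca. Atf3 also lost its call without 4T1 (adjusted p = 0.0875) or BNL 1ME A.7R.1 (0.0693), and Atf4 without KLN205 (0.087). Without Hepa 1-6 the count was 8 of 10. This comparison shares its NT tumors with the LEN comparison, so the values of both stand side by side only: Hspa5 was 0.25 higher at day 8 and a further 0.15 higher with LEN, and Sesn2 was 0.24 and 0.04.

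On average over models, NT tumors had lower levels of 5 of 7 endothelial, 4 of 4 skeletal muscle, 4 of 4 adipocyte, 3 of 5 T cell, 3 of 6 fibroblast, 2 of 6 macrophage, 2 of 4 neutrophil and 1 of 5 melanocyte markers than treatment-naïve tumors, and higher levels of 10 of 12 hypoxia genes, and their part in the result was not tested. No marker of proliferation, hepatocytes or B and plasma cells was called.

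The day 8 effect differed between models for all 10 genes, beside 66.5% of all genes. Of 120 pairs of gene and model, 22 were higher (18.3%) and 5 lower (4.17%), beside 8.69% and 5.22% of all pairs, from the contrasts of each model in the fit of all 71 Base and NT tumors. EMT6 held 10 of the 22, KLN205 5 and Renca 3, and all 5 lower calls were in Hepa 1-6.

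In EMT6 all 10 genes were called higher at day 8, beside 21.6% of all genes called higher. Every NT tumor was above every Base tumor for each of the 10 genes. The share of all genes with such a separation was not computed for day 8. Asns was 34.1, 28.7 and 24.2 TPM in Base and 68.8, 57.4 and 51.7 TPM in NT, a difference of 1.01 (SE 0.14, adjusted p = 2.95e-07). Trib3 was 9.57, 9.59 and 7.40 TPM in Base and 27.4, 19.9 and 17.2 TPM in NT, a difference of 1.18 (SE 0.21, adjusted p = 1.94e-05). The smallest difference of the 10 was that of Atf4, which was 131, 118 and 106.8 TPM in Base and 217, 168 and 174 TPM in NT (0.64, SE 0.09, adjusted p = 5.31e-07), and the median of the 10 was 0.97 against a median of 0.03 over all genes. These differences are from unscaled values. The median over all genes was -0.18 with upper-quartile and -0.27 with protein-coding scaling.

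The count stayed at 10 of 10 with scaling over protein-coding genes, under which the median of all genes in EMT6 was -0.27 and 5.46% were called higher, in a separate fit of that model, and without any 1 tumor. On unscaled values 10 of 13 aminoacyl-tRNA synthetases, 16 of 20 chaperone and unfolded protein response genes and 8 of 14 other ATF4 target genes were higher in these tumors too. The list counts were not repeated with rescaling. The summed level of 12 hypoxia genes was 1298 to 1419 TPM in Base and 2259 to 3276 TPM in NT, with 12 of 12 higher, 5 of 7 endothelial, 3 of 4 adipocyte, 3 of 4 skeletal muscle, 2 of 4 neutrophil and 1 of 6 macrophage markers were lower, 1 of 6 proliferation markers was higher, and the protein-coding share averaged 44.7% in Base and 58.9% in NT. Their part in the result was not tested.

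In KLN205, Atf4, Ddit3, Sesn2, Phgdh and Hspa5 were higher at day 8, beside 30.5% of all genes. The median effect over all genes in KLN205 was 0.26, near the median of 0.30 over the 10 genes and equal to the effect of Atf4 (0.26), and the protein-coding share averaged 41.2% in Base and 51.9% in NT. With either rescaling only Hspa5 of the 10 genes was called, when under 1% of all genes were called higher. Hspa5 was 226, 239 and 263 TPM in Base and 376, 378 and 410 TPM in NT, a difference of 0.68 (SE 0.11, adjusted p = 1.97e-05). On unscaled values 19 of 20 chaperone and unfolded protein response genes (median 0.52) were higher with it, and this list count was not repeated with rescaling. The effect of Hspa5 was 0.37 with upper-quartile scaling (adjusted p = 0.0283) and 0.34 with protein-coding scaling (adjusted p = 0.0242). The count in KLN205 was 3 with no minimum TPM, 3 without Base replicate 1 or 2, and 2 without Base replicate 3 or without NT replicate 2 or 3. In these NT tumors 3 of 12 hypoxia genes, 3 of 6 macrophage, 1 of 7 endothelial and 1 of 5 melanocyte markers were higher, and their part in the result was not tested.

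In Renca, Atf4, Ddit3 and Trib3 were higher, beside 1.19% of all genes and a median effect over all genes of -0.12. Trib3 was 62.6, 73.1 and 66.9 TPM in Base and 127, 110 and 101 TPM in NT, a difference of 0.73 (SE 0.21, adjusted p = 0.0157). With either rescaling Atf3 and Sesn2 were called higher as well, which made 5 of 10 genes, and a separate fit of the model called 4, with Atf3. The count was 1 without Base replicate 1 or without NT replicate 2. In NT tumors of Renca all 6 fibroblast markers were lower (summed level 1563 to 2416 TPM in Base, 348 to 737 TPM in NT), with 6 of 7 endothelial, 3 of 4 skeletal muscle, 1 of 5 T cell, 1 of 4 adipocyte and 1 of 4 hepatocyte markers. The summed hypoxia genes were 728 to 792 TPM in Base and 1547 to 1851 TPM in NT, with 8 of 12 higher. Their part in the result was not tested.

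Hepa 1-6 went the other way, with Atf4, Atf3, Trib3, Chac1 and Sesn2 lower at day 8, beside 19.6% of all genes called lower and a median effect over all genes of -0.18. The protein-coding share averaged 57.6% in Base and 50.9% in NT tumors of Hepa 1-6, and the groups did not overlap. Atf3 was 27.8, 29.5 and 28.8 TPM in Base and 17.2, 14.6 and 17.2 TPM in NT, a difference of -0.78 (SE 0.26, adjusted p = 0.0259). Chac1 was 5.25, 2.28 and 2.56 TPM in Base and 1.05, 2.13 and 0.74 TPM in NT, a difference of -0.90 (SE 0.24, adjusted p = 0.00604). The groups did not overlap for either gene, and the share of all genes without overlap was not computed for day 8. The count of genes called lower in this model was fragile. It fell to 1 with either rescaling or a separate fit of the model, to 0 without Base replicate 1, to 3 without Base replicate 3 or without NT replicate 2, and to 2 without NT replicate 3. All 6 macrophage, 3 of 6 fibroblast, 2 of 5 melanocyte, 1 of 7 endothelial and 1 of 4 neutrophil markers and the 1 tested B and plasma cell marker were lower at day 8 in this model, 2 of 4 hepatocyte markers were higher, and their part in the result was not tested.

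The other 4 models with a call had 1 each. In BNL 1ME A.7R.1, Hspa5 was 215, 241 and 201 TPM in Base and 405, 324 and 326 TPM in NT, a difference of 0.68 (SE 0.11, adjusted p = 4.02e-06), beside 22.5% of all genes called higher. On unscaled values 16 of 20 chaperone and unfolded protein response genes were higher with it, a list count not repeated with rescaling. In LL/2, Sesn2 was 6.52, 9.43 and 7.85 TPM in Base and 13.7, 13.1 and 12.5 TPM in NT, a difference of 0.67 (SE 0.14, adjusted p = 0.000542), beside 9.27% of all genes. Both calls passed under every alternative tried, a separate fit of the model included, but the difference of Hspa5 in BNL 1ME A.7R.1 was 0.47 with upper-quartile and 0.44 with protein-coding scaling. Sesn2 in RAG (0.62, adjusted p = 0.00613, beside 4.18% of all genes) lost its call in a separate fit (adjusted p = 0.45), without Base replicate 1 and without NT replicate 1. Hspa5 in 4T1 (0.32, adjusted p = 0.0399, beside 12.8% of all genes) lost its call with either rescaling (0.11 with upper-quartile and 0.15 with protein-coding scaling), with no minimum TPM, in a separate fit (adjusted p = 0.145) and without any of 5 of the 6 tumors. A separate fit of BNL 1ME A.7R.1 also called Ddit3 higher (0.36, adjusted p = 0.0372) and Atf4 lower (-0.23, adjusted p = 0.037).

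Marker levels moved in these models too. In NT tumors of BNL 1ME A.7R.1, 4 of 6 macrophage, 3 of 6 fibroblast, 1 of 7 endothelial and 1 of 12 hypoxia markers were higher, and 4 of 4 adipocyte and 3 of 4 skeletal muscle markers were lower. In LL/2, 4 of 7 endothelial and 3 of 6 macrophage markers were lower and 1 of 12 hypoxia genes was higher. In 4T1, 5 of 12 hypoxia genes and 2 of 6 macrophage markers were higher, and 4 of 4 adipocyte markers and 1 of 7 endothelial markers were lower. In RAG only 1 of 6 proliferation markers was called, higher. Their part in the results was not tested.

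On the mean over the 12 models, 16 of 20 chaperone and unfolded protein response genes (median 0.15), 8 of 13 aminoacyl-tRNA synthetases, 5 of 14 other ATF4 targets (1 lower) and 4 of 9 transporters rose by day 8, beside 17% of all genes called higher and 11.5% called lower. The counts of 1 of 12 eIF2 signaling genes and 1 of 8 serine, one-carbon and proline genes called higher lay below that share and are not a result about those lists, and 1 of 5 paralogs was lower.

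**Figure D4:**
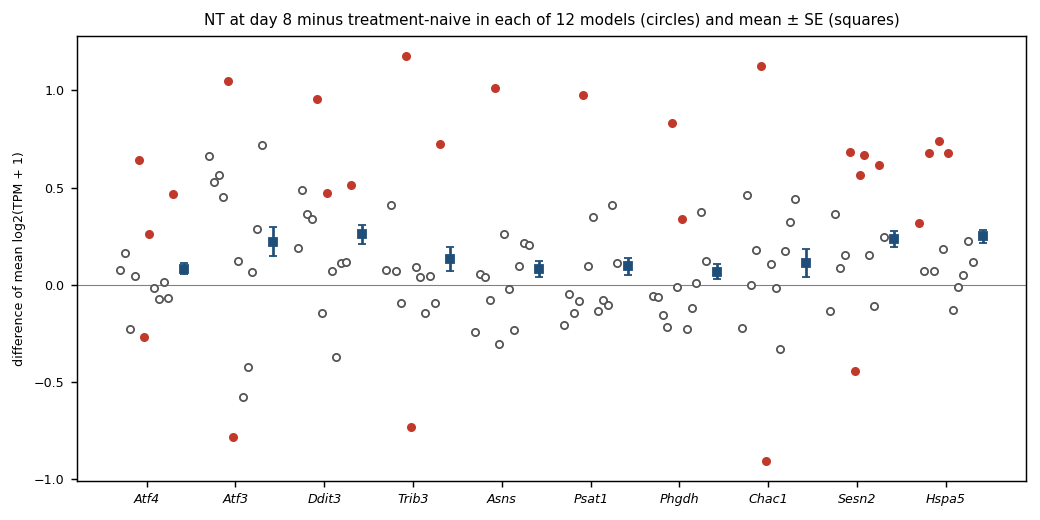
Difference NT at day 8 minus treatment-naïve in mean log2(TPM + 1) for each gene. Circles are the 12 models in alphabetical order from left to right, red where the contrast of that model passed the test. Squares with bars are the mean over models ± SE, with the SE from the spread of tumors within groups. EMT6 is called higher for all 10 genes, with Trib3 at 1.18, and the red circles below 0 are Hepa 1-6.

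The genes that moved most like each of the 10 from tumor to tumor were listed after the mean of each model and group was removed, over all tumors of the 3 groups, with Pearson r as a description. Atf4 was nearest to the synthetases Nars (r = 0.737) and Sars (0.724) and to Eif2s2 (0.726), a subunit of eIF2. Asns and Psat1 were each other's nearest gene (0.832). Asns was followed by Gars (0.77) and Nars (0.754), and Psat1 by Shmt2 (0.79) and Slc7a1 (0.766). Phgdh was nearest to Psat1 (0.694), Ybx3 (0.685) and Srm (0.669). Hspa5 was nearest to the chaperone genes Pdia6 (0.772), Hsp90b1 (0.762) and Manf (0.76), and 11 of its 20 nearest genes were on the pathway lists.

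Trib3 was nearest to Sars (0.6), Atf4 (0.583) and Aldh18a1 (0.578), Chac1 to Atf4 (0.592), Shmt2 (0.58) and Psat1 (0.539), and Sesn2 to Rhbdd1 (0.71), Atf4 (0.701) and Slc38a2 (0.679). Ddit3 was nearest to Sqstm1 (0.735), Bsg (0.64) and Ddit4 (0.639). Atf3 was nearest to Tnfaip3 (0.702), Bhlhe40 (0.667) and Hk2 (0.66). None of its 20 nearest genes was on the pathway lists, beside 1 each for Ddit3 and Phgdh. Over the 45 pairs of the 10 genes, r ran from -0.064 to 0.832 with a median of 0.427, and 44 pairs were positive. No r over other gene pairs was set beside these values, which were not rescaled. The protein-coding share also varied within groups, as in the LEN tumors of 4T1 (45.3%, 27.5% and 43.8%), and its part was not tested.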

How the data were processed

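RNA was sequenced from 35 Base, 36 NT and 36 LEN tumors, each library being 1 tumor. Per the study's methods and the submitters' processing notes, the authors trimmed reads with Trimmomatic 0.36, aligned them to mm10 with STAR 2.5.2b and quantified genes with RSEM 1.2.31, and the deposited values are TPM, which keep no read depth, so precision rests on the spread between tumors. The study's methods name 2 sequencers, the labels used here do not assign tumors to them, and a platform effect could not be checked.

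Values were analysed as log2(TPM + 1) for genes with a mean of at least 1 TPM over the fitted tumors, with limma 3.58.1 in R and its mean-variance trend. Model and arm formed the groups, contrasts were averaged over 12 models, compared between models by an F test and fitted within each model, with Benjamini-Hochberg adjustment over all genes tested (threshold 0.05). The scripts were tested on simulated data. With 100 of 17030 genes shifted by 0.25 in the mean of LEN minus NT, 87% were called. In BNL 1ME A.7R.1 alone, 86% of 50 genes shifted by 1.5 were called. Low genes were not among those shifted, and the within-model test was not checked for smaller shifts. Alternatives were another pseudocount, other minimum levels, 2 rescalings, no trend, a replicate block, and leaving out single tumors or models. The day 8 contrasts within models, and the alternatives for Atf3 in Renca and for single day 8 calls, were added after seeing the data.

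The 10 genes, the pathway and marker lists and the tests were chosen with earlier results of these data known. Genes were named by rule: the 10 genes, the 2 called genes with the largest LEN effect in each pathway list, and the 3 genes most correlated with each of the 10. Tumor values were given in the models with the largest called rise or fall after LEN and in the highest and lowest treatment-naïve models. Cth, the EMT6, KLN205, Renca and Hepa 1-6 values at day 8, Sesn2 in BNL 1ME A.7R.1, Trib3 in MC38 and the single day 8 calls were chosen after their values were seen. Gene positions came from GENCODE M21 and promoters from RefSeq, both on GRCm38.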

Additional observations from a re-analysis of the deposited data

Results flagged for a closer look

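The effect of LEN differed between the 12 models for 7 of the 10 genes, by the limma F test over the 12 differences LEN minus NT, with adjusted p-values over all genes, beside 35.3% of all genes called. These were Atf4 (0.00707), Ddit3 (0.0238), Trib3 (0.00209), Asns (0.0239), Chac1 (0.000164), Psat1 (0.0446) and Phgdh (0.000205).

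The difference between NT tumors at day 8 and treatment-naïve tumors differed between the models for all 10 genes by the same test, beside 66.5% of all genes called. The adjusted p-values were Atf4 (8.98e-07), Atf3 (0.000263), Ddit3 (0.0012), Trib3 (0.000122), Asns (2.98e-05), Chac1 (0.000834), Sesn2 (1.14e-05), Psat1 (9.04e-05), Phgdh (5.11e-05) and Hspa5 (4.62e-06). With 3 tumors in nearly every group, no single tumor was tested for standing apart.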

How the results depend on the processing

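The counts of genes called for the treatment-naïve differences (10), the day 8 differences between models (10), EMT6 (10) and the LEN differences between models (7, range 5 to 9) stayed within 1.5 times under every alternative tried. The LEN mean count of 5 fell to 3 without the model BNL 1ME A.7R.1, where Chac1 turned to -0.039. The day 8 mean count of 5 was 3 with upper-quartile scaling, with protein-coding scaling, without EMT6 and without Renca, and 8 without Hepa 1-6. Without EMT6, Asns (-0.00049) and Phgdh (-0.00036) turned sign at values near 0. The 8 calls of LEN within models were 4 with no minimum TPM and with no mean-variance trend. The 5 genes higher in BNL 1ME A.7R.1 were 3 with no minimum TPM and with either rescaling, and 3 to 5 when each tumor was left out. The 5 genes lower in Hepa 1-6 at day 8 were 1 with either rescaling or a separate fit, and 0 to 5 when each tumor was left out. The 5 genes higher in KLN205 at day 8 were 3 with no minimum TPM and 1 with either rescaling, and 2 to 6 when each tumor was left out. The 3 genes higher in Renca at day 8 were 5 with either rescaling, and 1 to 4 when each tumor was left out. The cause of these changes was not tested.

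With the replicate block the LEN mean count was 5, its count of differences between models 8, the within-model count 8, and the day 8 counts 5 and 10, with consensus correlations of 0.081 and -0.021. The block changed no call on a mean named here. The within-model block was fitted in 8 models that share at least 2 numbers, and the other 4 kept the fit without it. Deviations of the 20 same-numbered NT and LEN tumors correlated between -0.080 and 0.078, so no pairing by number was visible. With few shared numbers in each model, this check cannot exclude pairing. TPM keeps no depth, so what depth limits is unknown, and 3 tumors in a group limit what a single model can show.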
